A study of Homo sapiens with 6 samples.

Results

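Desmosomes are the junctions that tie the keratin filaments of one cell to those of its neighbour. Their genes were followed here through 10 members named for their place in the junction: the desmosomal cadherins DSG2, DSC2 and DSC3, the plaque linkers JUP (plakoglobin) and DSP (desmoplakin), the plakophilins PKP1, PKP2, PKP3 and PKP4, and the membrane protein PERP. All 10 were found among the 37803 gene symbols present once in both deposited tables, and 8 of them passed the filter on low values that 13909 symbols passed. The measured cells were H1, an established human embryonic stem cell line, sampled on day 2 of hematopoietic differentiation. Every culture, the controls included, had been grown for 2 days in mTeSR1-based medium with, by the labels, 40 ng/ml activin A and 50 ng/ml BMP4 (the study's methods give these concentrations the other way round). The 6 libraries fell into 3 groups of 2: wild type (WT), SNAI1_KO_1 and SNAI1_KO_2, the last 2 carrying deletions of SNAI1, a zinc-finger repressor of epithelial genes. The study's results describe knockout lines, in the plural, made with CRISPR/Cas9, with deletion or insertion frameshifts checked by sequencing. The labels do not state whether SNAI1_KO_1 and SNAI1_KO_2 are separate lines among these. The comparison asks how the junction's genes stood in cells given the same differentiation culture without SNAI1. The study reports that SNAI1 deletion impaired the induction of mesoderm and left fewer APLNR+ mesoderm cells.

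The desmosome is built in layers. Desmogleins and desmocollins, the cadherins of this junction, cross the membrane and bind those of the next cell, plakoglobin and the plakophilins attach to their cytoplasmic tails, and desmoplakin connects this plaque to intermediate filaments. Simple epithelia and heart muscle use mainly DSG2, DSC2 and PKP2, whereas DSG1, DSG3, DSC1 and PKP1 belong to stratified epithelia. During an epithelial to mesenchymal transition cells lose these junctions, and SNAI1 is one of the factors known to repress epithelial genes by binding the E-box CAGGTG near their start sites.

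Because of that E-box, the 250 bases before the transcription start are shown for the 3 members whose RefSeq promoter window (GRCh38.p14, 250 bases before to 50 after the start) held CAGGTG or its reverse complement CACCTG more than once. Capitals mark these matches. DSP lies on the + strand (chr6:7541421-7541670), DSG2 on the + strand (chr18:31497927-31498176) and JUP on the - strand (chr17:41785977-41786226), each printed 5′ to 3′ on the strand of the gene and ending at the base before the start.
DSP: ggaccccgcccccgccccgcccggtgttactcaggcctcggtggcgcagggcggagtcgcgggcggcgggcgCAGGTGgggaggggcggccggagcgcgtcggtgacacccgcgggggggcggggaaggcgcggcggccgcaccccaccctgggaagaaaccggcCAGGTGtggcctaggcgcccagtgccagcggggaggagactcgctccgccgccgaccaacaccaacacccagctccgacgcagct
DSG2: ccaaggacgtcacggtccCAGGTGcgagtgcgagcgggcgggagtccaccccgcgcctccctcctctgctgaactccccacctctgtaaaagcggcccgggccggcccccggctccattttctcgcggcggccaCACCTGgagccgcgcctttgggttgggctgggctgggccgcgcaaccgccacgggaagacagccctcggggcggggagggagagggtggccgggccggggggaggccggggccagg
JUP: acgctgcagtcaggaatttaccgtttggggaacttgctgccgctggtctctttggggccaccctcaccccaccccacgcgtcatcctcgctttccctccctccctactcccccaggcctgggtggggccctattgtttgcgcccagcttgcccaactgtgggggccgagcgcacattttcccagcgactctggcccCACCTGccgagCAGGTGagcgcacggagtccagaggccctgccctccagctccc
The matches began 178 and 85 bases before the DSP start, 232 and 116 bases before that of DSG2, and 54 and 43 bases before the JUP start shown. A search of both strands covered 8 of the 10 members with 11 windows in all, since some have several starts. PKP2 and PKP3 were not searched. At least 1 match was present in 4 of the 11 windows, those of DSC2, DSG2, DSP and JUP, against 20.6% of all 35116 promoter windows of the same length. At least 2 matches were present in 3 of the 11 windows and in 3.49% of all windows. The matches are letters in a window and no binding was measured. The windows of PERP, PKP1, PKP4 and DSC3 held none, and neither did the other window of JUP or the other window of DSC2. The grainyhead-type motif AACCNGTT was in 0 of the 11 member windows and in 0.968% of all windows.

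Expression was measured as FPKM, fragments counted per unit of transcript length and of library size, in 2 tables that each held 1 WT, 1 SNAI1_KO_1 and 1 SNAI1_KO_2 library and that the authors normalised separately, so libraries were compared within a table. Per library, FPKM summed to 603399 to 633851, and 13626 to 14164 symbols reached 1 FPKM. The number of reads behind each value is unknown, as the tables hold no counts. SNAI1 mRNA, which a frameshift need not remove and which therefore does not check the labels, was 37.1 and 36.4 FPKM in WT, 51.6 and 47.8 in SNAI1_KO_1 and 68.6 and 55.0 in SNAI1_KO_2. It was higher in all 4 knockout libraries (0.58 ± 0.0744 SE on the log2(FPKM + 1) scale, adjusted p = 0.00461). Some markers of other cell types differed between the groups, in both directions, and their values are given beside the junction genes below. Nothing in the labels says that libraries of a group came from separate cultures, so the p-values measure the spread between these samples, which may be technical.

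In WT cells the plaque and the cadherins were already expressed. JUP had the highest FPKM of the members (62.6 and 102.0 in the first and second table), followed by DSG2 (36.5 and 28.9), PKP4 (20.0 and 17.9) and DSP (17.8 and 17.5). PKP4 was 1.12 times DSP in the first table and 1.02 times in the second, and this difference was not tested. The lower positions were held by PERP (13.7 and 11.0), DSC2 (10.5 and 8.03), PKP3 (6.66 and 15.1) and PKP2 (4.08 and 5.17), with PKP3 below PERP and DSC2 in the first table and above both in the second. DSC3 (0.322 and 0.253) and PKP1 (0.181 and 0.168) were under 1 FPKM. The summed FPKM of the 10 members was 172.3 to 206.0 in WT and 292.5 to 311.5 in the 4 knockout libraries, without overlap. In each of the 4 knockout libraries PERP followed directly behind JUP and DSG2.

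**Figure D1:**
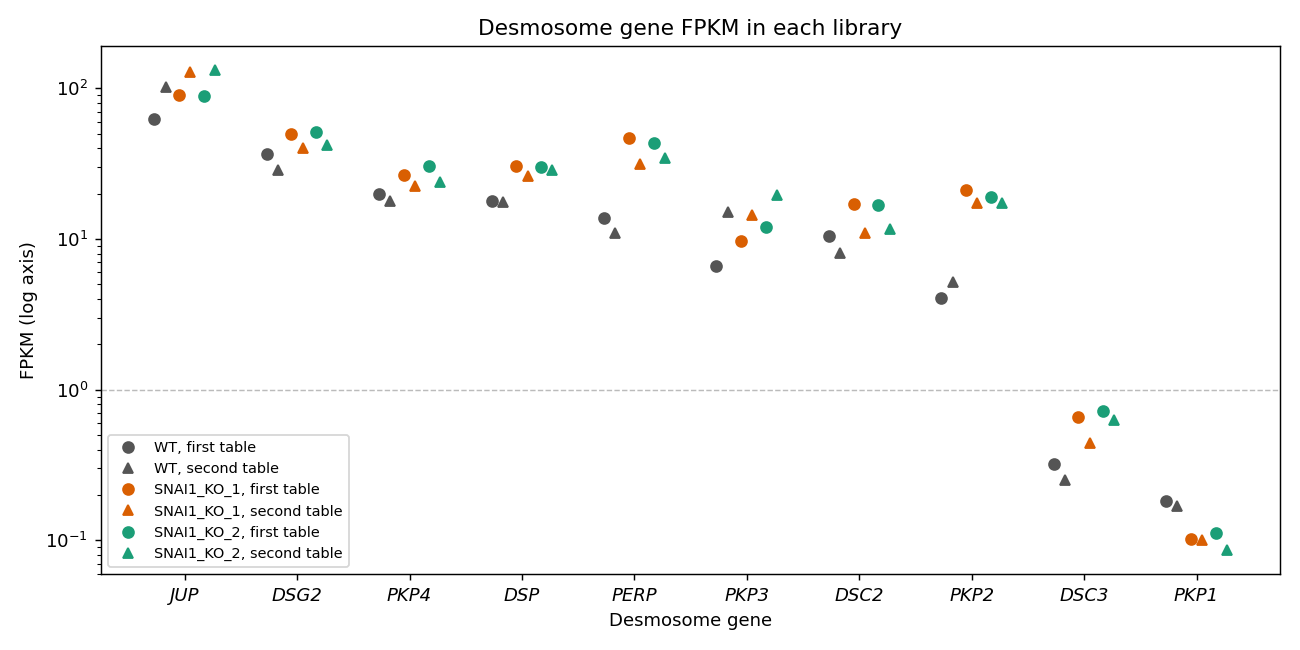
FPKM (log axis) of the 10 desmosome genes in each of the 6 libraries, with colours for the 3 groups, circles for the first table, triangles for the second and a dashed line at 1 FPKM. PERP and PKP2 show the widest gap between WT (11.0 to 13.7 and 4.08 to 5.17 FPKM) and knockout libraries (31.7 to 46.9 and 17.3 to 21.1), and DSC3 and PKP1 lie under 1 FPKM throughout.

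With both knockout groups set against WT, 7 of the 8 tested members rose and none fell in limma's moderated test on log2(FPKM + 1) with the table as a block (adjusted p under 0.05). Of all genes tested 31.3% were called, 15.8% as higher and 15.4% as lower. DSP, DSG2, DSC2, PKP2, PKP4, JUP and PERP rose, and PKP3 did not pass the test. The median log2 difference of the 8 members was 0.52, beside -0.05 over all genes tested, and each of the 8 had a larger difference than 84.0% to 98.7% of them. All 4 differences between a knockout library and the WT library of its table were positive for these 7 members, as for 26.2% of the genes tested, where 35.1% had 4 negative differences and 61.3% had 4 of one sign. In bulk RNA, more cells that express a gene and more of its RNA per cell cannot be told apart. Without the table in the fit DSP, PKP2 and PERP kept their call (adjusted p = 0.0363, 0.00544 and 0.014), and DSG2, DSC2, PKP4 and JUP did not (0.2 to 0.504).

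**Figure D2:**
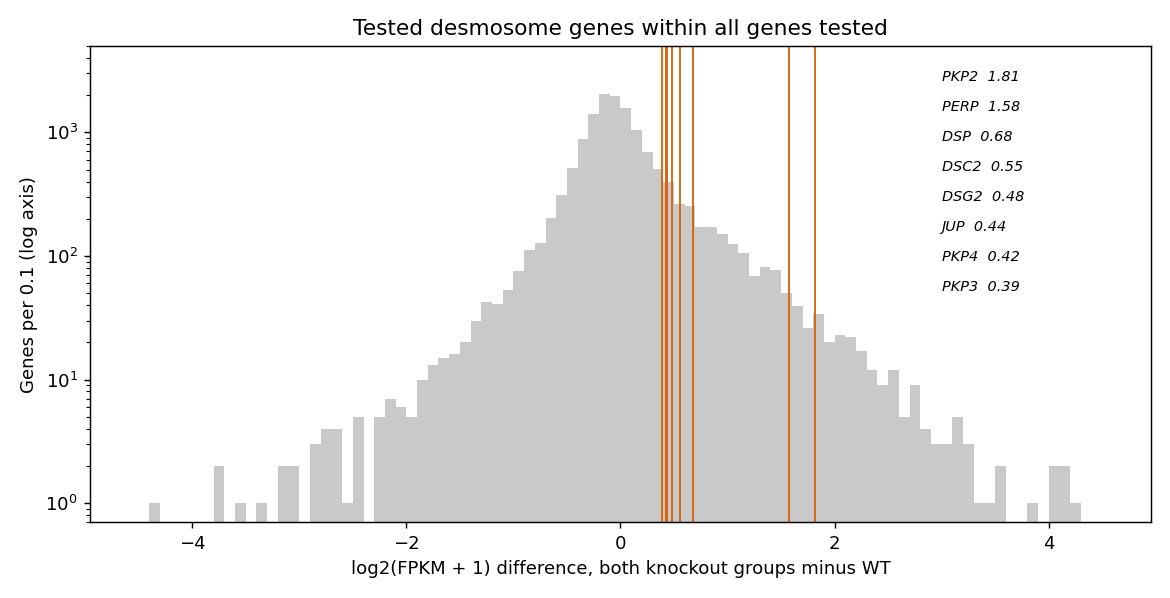
Difference between both knockout groups and WT on the log2(FPKM + 1) scale for all 13909 genes tested (grey histogram, number of genes per 0.1 on a log axis), with vertical lines at the values of the 8 tested desmosome genes. All 8 members lie to the right of the genes' median of -0.05, and PKP2 (1.81) and PERP (1.58) lie farthest out.

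Of the desmosomal cadherins, DSG2, the desmoglein of simple epithelia and heart, had 36.5 FPKM in WT against 49.7 in SNAI1_KO_1 and 51.4 in SNAI1_KO_2 in the first table, and 28.9 against 40.5 and 42.1 in the second. Each knockout library was above both WT libraries. DSG2 rose by 0.48 ± 0.0533 SE on the log2 scale (adjusted p = 0.00286), with knockout levels 1.36 to 1.46 times those of WT. DSC2, the desmocollin of the same tissues, had 10.5 FPKM in WT against 17.2 and 16.8 in the first table, and 8.03 against 11.0 and 11.7 in the second. The groups did not overlap, though the second-table knockout levels were close to the first-table WT level. DSC2 rose by 0.55 ± 0.0857 SE on the log2 scale (adjusted p = 0.00813), and without the first-table WT library the call was lost (log2 0.46, adjusted p = 0.0765).

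DSC3, a desmocollin of basal epidermal layers, was below the filter and was not tested. It was at 0.322 FPKM in WT against 0.66 and 0.723 in the first table, and 0.253 against 0.44 and 0.627 in the second. Its knockout levels were 1.74 to 2.48 times those of WT, all under 1 FPKM. DSG2 made up 73.6% to 77.9% of the FPKM summed over DSG2, DSC2 and DSC3 in all 6 libraries, and its share differed by -1.6 percentage points between knockout and WT (exact permutation test within tables, two-sided, p = 0.222), and by -3.11 points in the first table and -0.0817 in the second. The DSC2 share was 22.1% and 21.6% in WT and 21.2% to 25.4% in the knockout libraries (1.27 points, exact permutation p = 0.333), and its difference was 2.77 points in the first table and -0.237 in the second. That test has 9 arrangements and cannot give a p below 0.111. The summed FPKM of the cadherins was 47.3 in WT against 67.5 and 68.9 in the first table, and 37.1 against 52.0 and 54.5 in the second, so their total was higher in every knockout library than in the WT library of its table.

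The other cadherins of the desmosome, DSG1, DSG3, DSG4 and DSC1, were near 0 and none of the 4 was tested. Their summed FPKM was 0.019 to 0.0361 in WT and 0.0584 to 0.164 in the knockout libraries. DSG3, a cadherin of basal epidermis, was listed at 0 in both WT libraries and at 0.0498 to 0.128 FPKM in the knockouts. The desmosomal cadherin genes sit side by side on chromosome 18, and of their neighbours B4GALT6, a glycolipid galactosyltransferase, rose from 5.13 FPKM to 6.92 and 7.81 in the first table and from 4.2 to 6.33 and 6.91 in the second (log2 0.50 ± 0.0916 SE, adjusted p = 0.0136). CDH2 (N-cadherin) did not pass the test (log2 0.07, adjusted p = 0.557) and TTR was listed at 0. Genes that overlap members were at low levels, DSG2-AS1 at no more than 0.024 FPKM and DSCAS, which overlaps DSC2, at 0. Whether the counting used strand is not given in the sources used here.

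In the plaque, JUP, the catenin that desmosomes and adherens junctions share, had 62.6 FPKM in WT against 90.1 and 89.3 in the first table, and 102.0 against 129.2 and 132.7 in the second. The tables differed more in JUP than the groups did, and the second-table WT level lay above the first-table knockout levels. Within tables JUP was 1.27 to 1.44 times its WT level and rose by 0.44 ± 0.0556 SE on the log2 scale (adjusted p = 0.00443). Its close relative CTNNB1 (β-catenin), which belongs to adherens junctions, was at 135.3 FPKM in WT against 151.9 and 141.0, and 107.5 against 110.5 and 108.3 (log2 0.07 ± 0.0478 SE, adjusted p = 0.322). The ratio of JUP to CTNNB1 FPKM was 0.463 in WT against 0.593 and 0.633 in the first table, and 0.949 against 1.17 and 1.23 in the second (exact permutation p = 0.111, the smallest possible).

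DSP, the linker to keratin, was at 17.8 FPKM in WT against 30.5 and 30.0 in the first table, and 17.5 against 26.4 and 28.7 in the second. The WT libraries were nearly equal and far below every knockout library. DSP rose by 0.68 ± 0.0691 SE on the log2 scale (adjusted p = 0.00218), with knockout levels 1.51 to 1.71 times those of WT. Its difference exceeded that of 90.6% of all genes tested. The 5 genes in no list here whose 4 within-table log2 differences lay closest to those of DSP were VASP, an actin regulator (Euclidean distance 0.046), TAP1, a peptide transporter (0.059), the sialyltransferase ST8SIA6 (0.073), C1orf198 (0.076) and the ubiquitin ligase TRIM36 (0.081). Among the members DSC2 was the closest to DSP (0.269), and PKP2 the farthest (2.3).

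**Figure D3:**
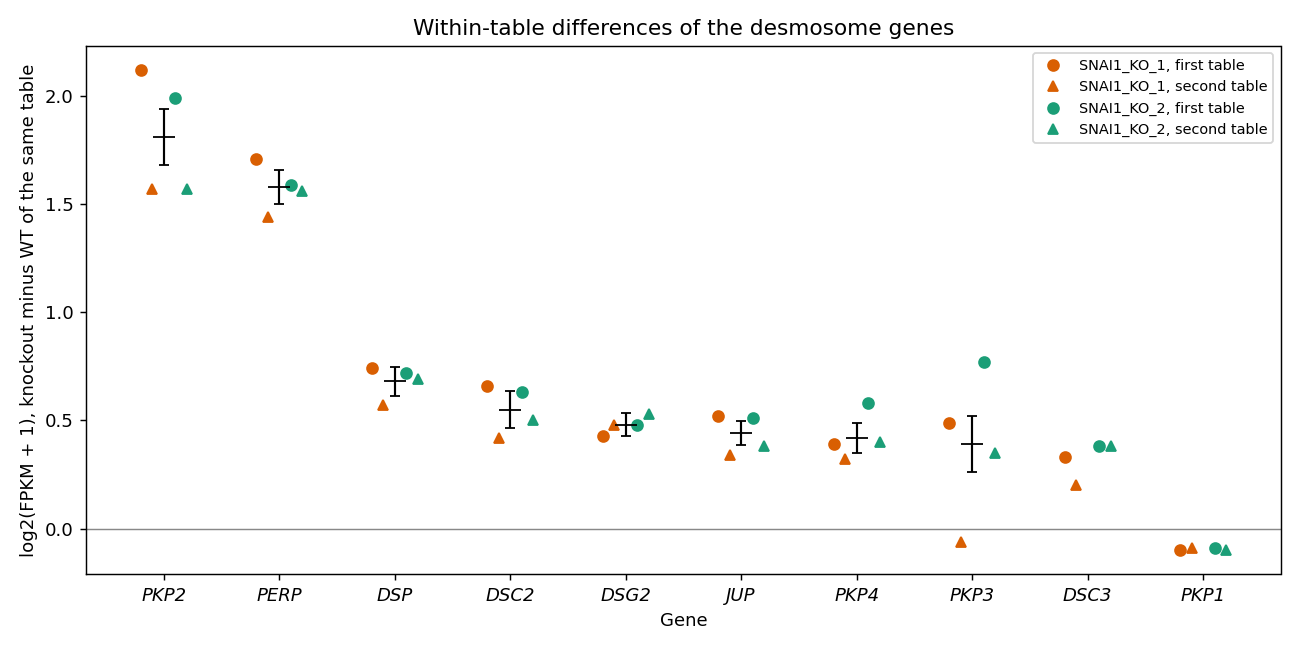
Within-table differences of each knockout library from the WT library of its table, on the log2(FPKM + 1) scale, for the 10 desmosome genes, with 4 points a gene and, for tested genes, crosses and bars for the fitted difference of both knockout groups ± SE. The points of PKP2 (1.57 to 2.12) and PERP (1.44 to 1.71) stand apart from those of DSP, DSG2, DSC2, PKP4 and JUP (0.32 to 0.74), and those of PKP3 run from -0.06 to 0.77.

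The plakophilins were the members that differed most among themselves. PKP2, the plakophilin of simple epithelia and heart, was at 4.08 FPKM in WT against 21.1 and 19.1 in the first table, and 5.17 against 17.3 and 17.3 in the second. The knockout levels were 3.35 to 5.17 times those of WT, with no overlap. PKP2 rose by 1.81 ± 0.129 SE on the log2 scale (adjusted p = 0.000765) and ranked 185th of 13909 genes by that difference. PKP4, an armadillo protein also found at adherens junctions, had 20.0 FPKM in WT against 26.5 and 30.4, and 17.9 against 22.6 and 24.0. Each of its knockout libraries was above both WT libraries, by less than for PKP2. PKP4 rose by 0.42 ± 0.0688 SE (log2, adjusted p = 0.00932), and without the first-table WT library that call was lost (log2 0.36, adjusted p = 0.083).

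PKP3, the plakophilin with the widest epithelial range, was at 6.66 FPKM in WT against 9.74 in SNAI1_KO_1 and 12.1 in SNAI1_KO_2 in the first table, and at 15.1 against 14.5 and 19.6 in the second. Its groups overlapped, and the SNAI1_KO_1 library of the second table was below WT. The difference was 0.39 ± 0.129 SE on the log2 scale (adjusted p = 0.0743), and it rested on the WT libraries: without the first-table one it was 0.15 (adjusted p = 0.407), and without the second-table one it was 0.63 and passed the test (adjusted p = 0.0464). PKP1, the plakophilin of suprabasal epidermis, was under the filter at 0.181 FPKM in WT against 0.102 and 0.112, and 0.168 against 0.1 and 0.0858. It was the only member lower in all 4 knockout libraries, at 0.512 to 0.621 times WT, and was not tested.

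The shares of the plakophilins were farther apart between the groups than those of the cadherins, by values given side by side and not tested against each other. The PKP2 share of summed plakophilin FPKM was 13.2% in WT against 36.7% and 31.0% in the first table, and 13.5% against 31.8% and 28.4% in the second (18.7 percentage points, exact permutation p = 0.111). The PKP4 share was 64.6% in WT against 46.1% and 49.3%, and 46.7% against 41.4% and 39.3% (-11.6 points, exact p = 0.111, with -17.0 in the first table and -6.29 in the second). The PKP3 share was 21.6% in WT against 17.0% and 19.5%, and 39.4% against 26.6% and 32.1% (-6.69 points, exact p = 0.111, with -3.3 in the first table and -10.1 in the second). PKP4 and PKP3 thus held smaller shares in every knockout library than in the WT library of its table, although the FPKM of PKP4 rose. Transcripts that overlap these genes were low, with PKP4-AS1 at 0.292 to 1.04 FPKM, AC005042.1 (in PKP4) at most 0.251, AC087588.2 (in PKP2) at most 0.412 and the pseudogene PKP4P1 at most 0.0356.

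**Figure D4:**
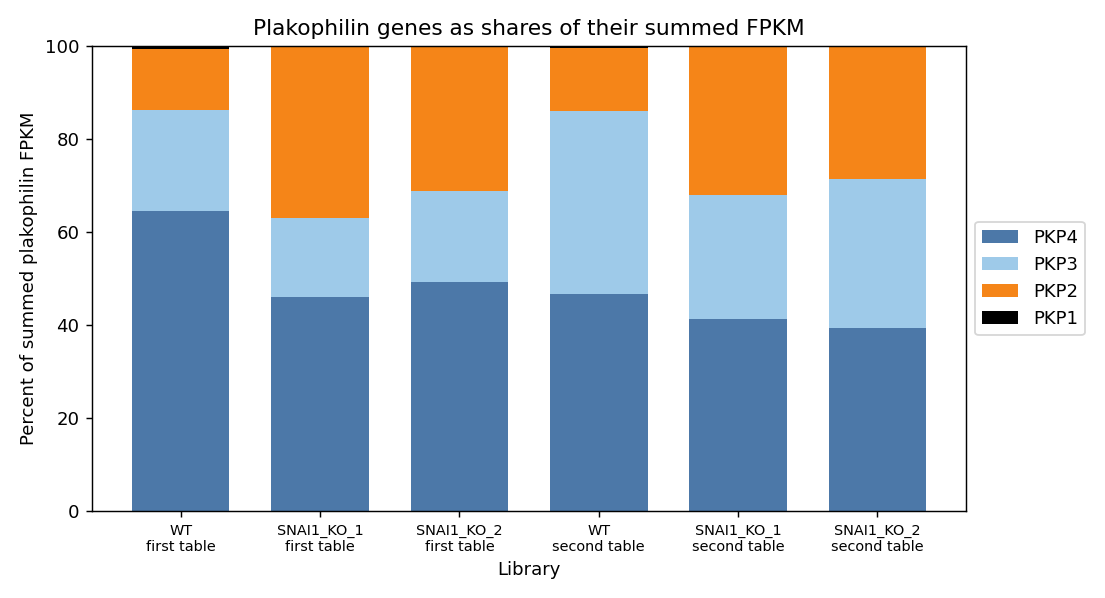
Share of each plakophilin in the summed plakophilin FPKM (percent, stacked to 100) in each of the 6 libraries. PKP2 takes 13.2% and 13.5% in the WT libraries and 28.4% to 36.7% in the knockout libraries.

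PERP, a tetraspan membrane protein of desmosomes and a target of p53 and p63, was at 13.7 FPKM in WT against 46.9 and 43.2 in the first table, and 11.0 against 31.7 and 34.5 in the second. The lowest knockout library had more than the highest WT library by a wide margin. PERP rose by 1.58 ± 0.0797 SE on the log2 scale (adjusted p = 0.000322), with knockout levels 2.88 to 3.44 times WT, and ranked 271st of 13909 genes. Its ratio to DSP FPKM was 0.767 in WT against 1.54 and 1.44, and 0.629 against 1.2 and 1.2 (exact permutation p = 0.111). TP63, the p63 gene, was at no more than 0.119 FPKM in any library.

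Each knockout group was also set against WT by itself, with the same WT libraries in both comparisons. In SNAI1_KO_1, 7 of 8 tested members rose, where 23.9% of all genes were called and 13.0% were called higher. In SNAI1_KO_2 all 8 tested members rose, where 25.5% of genes were called and 13.5% were called higher. The exception in SNAI1_KO_1 was PKP3 (log2 0.21, adjusted p = 0.345), which passed narrowly in SNAI1_KO_2 (0.56, adjusted p = 0.0467). That call was lost without the table in the fit (adjusted p = 0.63), without the filter on low values (0.177) and on leaving out any library but the second-table WT one (0.065 to 0.23). PKP2 and PERP passed in both groups whichever library was left out. Leaving out 1 library leaves a group with 1 library, and for SNAI1_KO_1 fewer members were then called in every such fit. For SNAI1_KO_2 fewer members were called in every such fit but the one without the second-table WT library. Calls over all genes tested were also fewer in each of these fits, for both groups. DSC2, PKP4, JUP and DSG2 were among the calls lost, with log2 differences that stayed positive. DSP lost its call in SNAI1_KO_1 without that group's first-table library (log2 0.575). Without the table in the fit DSP lost it in SNAI1_KO_1 and in SNAI1_KO_2 (limma adjusted p = 0.0823 and 0.0611).

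SNAI1_KO_2 against SNAI1_KO_1 gave no call for any member or for any of the 13909 genes (0.00% called by limma, 521 genes at unadjusted p under 0.05). Member differences ran from -0.07 to 0.35 on the log2 scale. PKP3 had the largest, 0.35 higher in SNAI1_KO_2 (unadjusted p = 0.0637), so that its passing in one group and not in the other was not a difference between the groups by this test. The lack of a call does not show that the groups were alike.

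The filaments and plaque partners that desmosomes connect to were compared in the same way. Of the 8 listed intermediate filament genes 4 were tested, and 3 keratins rose and vimentin fell, where 31.3% of all genes were called. KRT18, which pairs with KRT8 in simple epithelia, went from 197.9 FPKM in WT to 777.2 and 734.2 in the first table, and from 208.0 to 609.9 and 705.4 in the second (log2 1.79 ± 0.0874 SE, adjusted p = 0.000303). KRT8 went from 397.6 to 1276 and 1202, and from 440.5 to 1191 and 1355 (log2 1.58 ± 0.0643 SE, adjusted p = 0.000196). Beside these keratins stand the log2 differences of PKP2 (1.81) and PERP (1.58) and that of their anchor DSP (0.68). VIM, the filament of mesenchymal cells, fell from 661.0 to 279.7 and 251.7, and from 516.7 to 136.9 and 142.8 (log2 -1.60 ± 0.133 SE, adjusted p = 0.00117).

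Of the 7 listed partners of the desmosome 5 were tested, with 1 higher, 1 lower and 3 not called, and a median log2 difference of -0.18, where 31.3% of all genes were called. PPL (periplakin), a plakin related to desmoplakin, rose from 2.07 FPKM to 14.7 and 16.0 in the first table and from 2.85 to 18.0 and 22.2 in the second (log2 2.43 ± 0.084 SE, adjusted p = 0.000181). KAZN (kazrin), which binds periplakin, fell from 31.7 to 18.5 and 19.7, and from 46.7 to 28.5 and 26.0 (log2 -0.73 ± 0.0713 SE, adjusted p = 0.0019). PPL had a larger difference than any of the 8 tested members. EVPL (envoplakin), the partner of periplakin in the cornified envelope, was below the filter at 0.0531 and 0.0533 FPKM in WT and 0.249 to 0.463 in the knockouts. PLEC, PNN and TCHP did not pass the test (log2 0.14, -0.18 and -0.28, adjusted p = 0.188, 0.0739 and 0.0671).

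**Figure D5:**
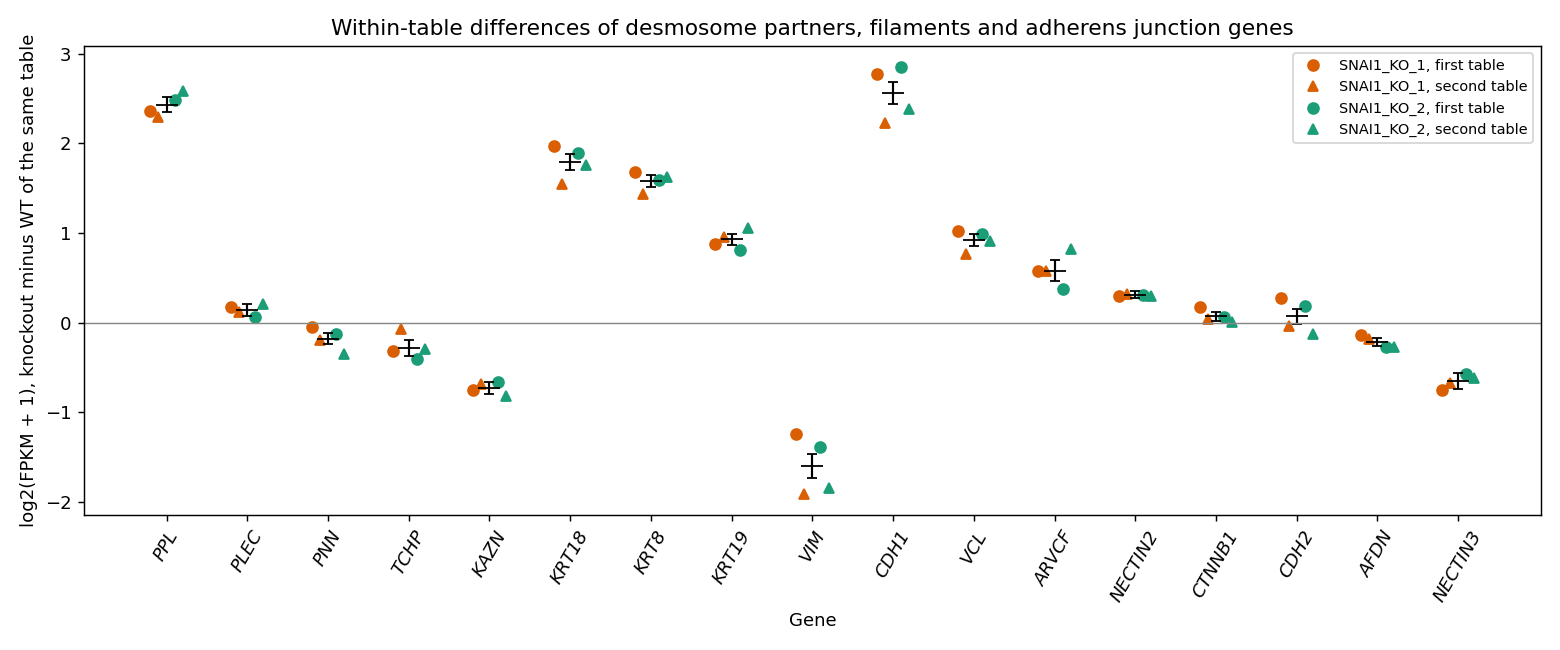
Within-table differences of the knockout libraries from WT (log2(FPKM + 1) scale, 4 points a gene) for tested genes of the partner, filament and adherens junction lists, with crosses and bars for the fitted difference ± SE. CDH1 (2.56) and PPL (2.43) lie highest, VIM (-1.60) lies lowest, and CTNNB1 and CDH2 (both 0.07) lie around 0.

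The adherens junction, which assembles beside the desmosome, did not move in a single direction. Of its 11 tested genes 4 rose, 2 fell and 5 were not called, with a median log2 difference of 0.12. Over all genes tested 15.8% were called higher and 15.4% lower. CDH1 (E-cadherin), its cadherin in epithelia, rose from 10.3 FPKM to 76.6 and 80.7 in the first table and from 18.5 to 90.1 and 100.4 in the second (log2 2.56 ± 0.123 SE, adjusted p = 0.000292). VCL (vinculin), an actin linker, rose by 0.92 ± 0.0664 SE (adjusted p = 0.000784). NECTIN3 fell by 0.65 ± 0.0918 SE (adjusted p = 0.00593) and AFDN (afadin), which binds nectins, fell by 0.22 ± 0.0424 SE (adjusted p = 0.0163). The ratio of DSG2 to CDH1 FPKM was 3.55 in WT against 0.649 and 0.637 in the first table, and 1.56 against 0.45 and 0.419 in the second (exact permutation p = 0.111), so DSG2 exceeded CDH1 in WT and was the lower of the pair in every knockout library.

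Of the 12 listed transcription factors that regulate epithelial junctions 11 were tested, with 5 higher, 4 lower and 2 not called (median log2 0.38). GRHL3, a grainyhead-like activator of epidermal genes, rose from 0.858 FPKM to 7.39 and 6.76 in the first table and from 1.02 to 5.9 and 7.92 in the second (log2 2.04 ± 0.14 SE, adjusted p = 0.00072). OVOL2, a repressor of mesenchymal genes, rose by 1.41 ± 0.11 SE (adjusted p = 0.000965). The repressors ZEB2 and ZEB1, which like SNAI1 bind E-boxes, fell by 1.16 ± 0.131 SE (adjusted p = 0.00298) and by 1.15 ± 0.167 SE (adjusted p = 0.00661). Of the genes for the turnover and modification of desmosomal proteins, 0 of 7 tested were higher and 6 were not called. ZDHHC8, a palmitoyltransferase, was lower (log2 -0.32 ± 0.0595 SE, adjusted p = 0.0147). Over all genes tested 15.8% were called higher and 15.4% lower.

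Some marker genes of the cell types that the cultures could hold were called higher and others lower. Their part in the results above was not tested. Their counts of calls stand beside 15.8% called higher and 15.4% called lower over all genes tested. Summed FPKM of the 6 pluripotency markers was 943.1 to 1031 in WT and 1154 to 1399 in the knockouts, with 3 higher (POU5F1, NANOG and DPPA4) and none lower. That of the 8 mesoderm markers was 1560 to 1624 in WT and 1069 to 1149 in the knockouts, with 5 lower and 1 higher (brachyury, listed under its older symbol T). POU5F1 was at 484.8 FPKM or more and MESP1 at 37.6 or more in every library. SOX2 was at 0.281 to 2.18 FPKM and NANOG at 6.58 to 19.2 across the libraries. The 5 mesoderm markers called lower were MESP1 (log2 -0.43), EOMES (-0.7), PDGFRA (-0.47), HAND1 (-1.96) and APLNR (-1.27), and T rose by 2.72. The 6 endoderm markers summed to 254.0 to 591.3 in WT and 240.7 to 539.9 in the knockouts, with 1 higher and 3 lower.

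Desmosome-rich tissues were represented by 3 further lists, to be read beside the same shares over all genes (15.8% higher, 15.4% lower). Of the 6 epidermal markers 2 were tested and SFN rose, with sums of 28.7 to 33.8 FPKM in WT and 50.8 to 91.9 in the knockouts. KRT10, a suprabasal keratin, made up most of the WT sum at 24.6 and 24.4 FPKM, was at 24.0 to 27.5 in the knockouts and did not pass the test (log2 0.06, adjusted p = 0.513). The defining basal keratin KRT14 was listed at 0 in all libraries, KRT5 was at no more than 0.18, KRT1 at no more than 0.137 and TP63 at no more than 0.119. Of the 8 amnion and trophoblast markers 5 were tested, with 3 higher and 1 lower, and sums of 37.0 to 58.4 against 44.7 to 75.1. Of the 7 cardiomyocyte markers 4 were tested, with 2 higher (TNNT2, log2 1.49, and MYL7, log2 1.27) and 1 lower (NKX2-5, log2 -1.42). The 7 summed to 106.2 to 116.7 FPKM in WT against 193.1 to 276.2 in the knockouts. Most of that sum was MYL7, at 84.8 and 90.9 FPKM in WT and 176.3 to 260.3 in the knockouts. MYH6 and MYH7 were at no more than 0.0306 FPKM. The stratified epithelial members DSC3 and PKP1 and the cadherins DSG1, DSG3, DSG4 and DSC1 were under 1 FPKM in all libraries, where KRT5, KRT14 and KRT1 were near 0. Being below the filter, they were not tested and could not be among the calls. DSC3 was at 1.74 to 2.48 times its WT level in the knockout libraries, and PKP1 at 0.512 to 0.621 times. Of the tested members, those that rose were DSP, JUP, PERP, PKP2, PKP4, DSG2 and DSC2.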

How the data were processed

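RNA of H1 cells had been sequenced in 6 libraries (2 ug total RNA, TruSeq kit), and the authors deposited 2 tables of FPKM values per gene, each with 1 library of each group. The heading of the second table names FPKM, the first names no unit and was read as the same from its values. The submitters' notes name hg19, BWA, Bowtie and RSEM without roles. The annotation, strand setting and read numbers are not given in the sources used here, so no counting interval was possible. The tables held 38100 and 58324 rows. Symbols listed more than once (94 and 340) were left out. CDH3 was not found among the symbols present once in both tables and was not analysed here, and TBXT was found as T.

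Values were tested as log2(FPKM + 1) for genes with a mean of at least 1 FPKM, using limma 3.58.1 in R 4.3.3 with group and table as terms, a mean-variance trend and Benjamini-Hochberg adjustment over all 13909 genes (threshold 0.05, 2 residual and 3.34 prior degrees of freedom). Fold changes on this scale understate those of low genes. Columns carry no replicate number, so the pairing comes from the shared table: the differences between tables correlated across genes at r = 0.616 to 0.676 between groups. Shares and ratios were tested by exact permutation within tables. The members and gene lists were chosen with earlier results of these data known. Named were SNAI1, all members, up to 2 of the largest rises and falls of each other list, genes that overlap or marker checks needed, and the 5 genes nearest to DSP. Which genes overlap was read from GENCODE 29. Promoters came from RefSeq. The fit was tested on simulated data with known changes, and it recovered large changes far more often than small ones. Alternatives left out the table term, the filter or each library, and changed the pseudocount, scaling or threshold.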

Additional observations from a re-analysis of the deposited data

How the results depend on the processing

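The 7 members called higher in both knockout groups against WT kept a positive difference under every alternative run, and PKP2 and PERP kept their call in all of them. Without the table as a replicate block the calls in both groups, SNAI1_KO_1 and SNAI1_KO_2 fell to 1065, 576 and 698 genes with 3, 2 and 2 members. Without the filter on low values they were 2139, 1008 and 1216 genes, and the members in the single groups 4 and 4. With a log2 difference of at least 1 required they were 998, 950 and 1054 genes with 2, 2 and 2 members. Leaving out 1 library gave 1728 to 2840, 962 to 2379 and 1135 to 2693 genes, and 5 to 8, 2 to 6 and 3 to 8 members. PKP3 in SNAI1_KO_2 lost its call under quantile normalisation (adjusted p = 0.0504), without the variance trend (0.0767) and with equal library means (0.0528), the last chosen after seeing the data. Called genes were 4648 (2089 higher) with equal library means and 4108 (2426 higher) with median-ratio scaling, and these scalings put the median log2 difference of all genes at -0.078 to -0.009. The DSC2 share of cadherin FPKM ranged from -0.237 to 2.77 points with 1 library left out and was -0.237 in the second table alone, and the DSC3 share from 0.25 to 0.402. The DSG2 share ranged from -3.11 to -0.0817, the PKP3 share of plakophilin FPKM from -10.1 to -3.3 and the PKP4 share from -17.0 to -6.29, with the extremes without a WT library. With 1 library left out, PKP3 in SNAI1_KO_1 ranged from -0.027 (without the first-table WT library) to 0.455. Between SNAI1_KO_2 and SNAI1_KO_1, where no member passed the test, the log2 differences of 5 members turned direction in the same way, with ranges of -0.123 to 0.128 for PERP, -0.237 to 0.105 for PKP2, -0.046 to 0.07 for JUP, -0.031 to 0.129 for DSP and -0.064 to 0.115 for DSC2, and PERP was -0.001 with a pseudocount of 10 and -0.011 under quantile normalisation. The causes were not tested, beyond fewer libraries in each such fit. Of 512 gene results under alternatives 424 kept direction and call, 76 lost the call, 1 gained it and 11 reversed. With no read numbers, the counting error behind each value is unknown, and 2 libraries a group limit the precision.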
